A study of Physcomitrium patens with 24 samples.

Results

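The genes described here are 4 homologs of plant clock genes in the moss *Physcomitrella patens*: CCA1 (Pp3c3_37540), PRR3 (Pp3c16_18610), ELF3 (Pp3c11_14750) and CCR2 (Pp3c7_3360). They were taken by gene identifier from the 32926 genes of the count files, and all 4 were among the 21429 genes tested. The samples were 7-day-old protonemata, the filamentous stage of the moss, of the Gransden strain. Heat was applied as 30 °C or as 37 °C, lasting 1, 6, 12 or 24 h, and controls were kept at 24 °C for the same times. The 12 groups had 2 libraries of messenger RNA each, described as biological replicates. No mutant or added agent was involved, and all groups were grown under a cycle of long light and short dark periods. The time of day at which heating began is not given in the sources used here, so the 4 times cannot be placed in the light cycle. No cell type markers were examined, so the tissue label was not tested against the data.

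The plant circadian clock is a network of transcriptional regulators that repress each other in turn over the day, and it is known mainly from *Arabidopsis thaliana*. There, CCA1 is a MYB-type transcription factor whose transcript peaks around dawn and which represses genes expressed later in the day. The pseudo-response regulators, among them PRR3, accumulate in sequence from morning to night, and several of them repress CCA1 or modulate the stability of another member of the family. ELF3 is a scaffold of the evening complex, a repressor that also takes part in temperature sensing, and CCR2 is a glycine-rich RNA-binding protein whose transcript is a widely used output of the clock. The roles given below are those of the *Arabidopsis* genes.

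Library totals lay between 4332911 and 9040288 counts at 30 °C, between 6358666 and 9102369 at 37 °C and between 4552626 and 10696081 at 24 °C. Levels are given as CPM, read counts brought to a common library total that was scaled by TMM factors. As a check of the heat labels, the HSP20-like gene Pp3c16_7110, a small heat shock protein gene, had 25.2 to 233 CPM in the 30 °C libraries, 147 to 4866 CPM in the 37 °C libraries and 0 to 1.60 CPM in the 24 °C libraries, with no overlap between heated and control libraries. The 2 libraries of 37 °C 1 h differed most among replicates (chi-square of 42.6 per gene), and the closest pair was 24 °C 24 h (2.997). The p-values measure the spread between libraries of which each group had only 2, and an exact permutation test of 2 against 2 cannot give a two-sided p below 0.333. In whole tissue, fewer cells of a type and less RNA per cell cannot be told apart. A gene is called up or down below where edgeR's quasi-likelihood test gave a Benjamini-Hochberg adjusted p under 0.05 over all genes tested and the log2 fold change was at least 1 in size.

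Without heat, all 4 genes changed with the time of harvest. The CCA1 homolog had 214.5 and 179 CPM at 1 h, 1.71 and 1.36 CPM at 6 h, 13.1 and 19.7 CPM at 12 h, and 237 and 198 CPM at 24 h. It was thus high at 1 h and 24 h and near the detection limit at 6 h, where the libraries held 15 and 11 reads of the gene. The PRR3 homolog had 47.7 and 58.1 CPM at 1 h, 390 and 382 CPM at 6 h, 412 and 449 CPM at 12 h, and 20.2 and 24.5 CPM at 24 h. The CCR2 homolog had 118 and 140.0 CPM at 1 h, 928 and 1131 CPM at 6 h, 1869 and 1686 CPM at 12 h, and 180.0 and 197 CPM at 24 h. Both genes were high at the times when the CCA1 homolog was low. The ELF3 homolog had 53.3 and 68.1 CPM at 1 h, 57.4 and 67.6 CPM at 6 h, 146 and 173 CPM at 12 h, and 53.8 and 39.0 CPM at 24 h. Only its 12 h libraries stood above the others.

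**Figure D1:**
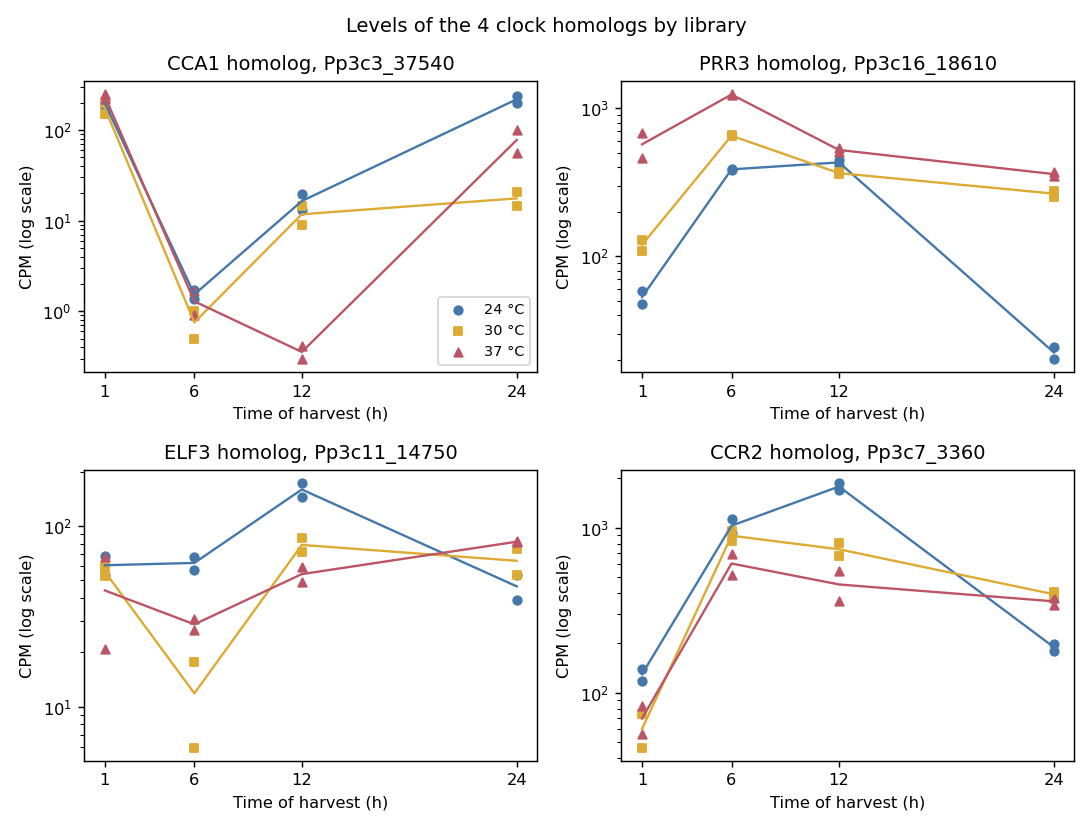
CPM (log scale) of each homolog against the time of harvest in hours, 1 panel per gene. Points are the single libraries, 2 per group, at 24 °C (circles), 30 °C (squares) and 37 °C (triangles), and lines join the group means. At 24 h the CCA1 homolog was at 14.3 to 20.8 CPM in the 30 °C libraries and 56.2 to 98.5 CPM in the 37 °C libraries, below the 198 to 237 CPM of the 24 °C libraries, while the PRR3 homolog was at 252 to 369 CPM in the heated libraries and 20.2 to 24.5 CPM in the 24 °C libraries.

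From 1 h to 6 h at 24 °C, 3 of the 4 homologs were called, against a background of 13.8% of all genes. The CCA1 homolog fell by 6.98 on the log2 scale (standard error 0.39, adjusted p = 6.46e-09, edgeR), and the PRR3 and CCR2 homologs rose with log2 fold changes of 2.87 ± 0.17 (SE, adjusted p = 1.15e-08, edgeR) and 2.99 ± 0.25 (SE, adjusted p = 2.89e-07, edgeR). The ELF3 homolog had a log2 fold change of 0.04, whose sign differed between scaling factors. From 6 h to 12 h, 1 of 4 was called, the CCA1 homolog with 3.40, and 1.59% of all genes were called. The ELF3 homolog had 1.35 over this interval and missed the threshold (adjusted p = 0.0791, edgeR), and was called with DESeq2 (adjusted p = 0.0216). From 12 h to 24 h all 4 were called, where 10.4% of all genes were. The CCA1 homolog rose (3.73), and the PRR3 (-4.27), ELF3 (-1.78) and CCR2 (-3.24) homologs fell. The call of the ELF3 homolog was lost without 24 °C 24 h replicate 2, with a log2 fold change of -1.57 and an adjusted p of 0.0693 (edgeR), and with limma-voom and treat, which tests against the fold limit itself (adjusted p = 0.555). With treat the calls of CCA1 for 12 h against 6 h and of PRR3 for 24 h against 1 h were lost too. Of all genes, treat called 421 for 24 h against 12 h, 28 for 12 h against 6 h and 0 for 24 h against 1 h. With edgeR these were 2225, 340 and 802. Between 24 h and 1 h, which lie almost a day apart, 1 of 4 was called, where 3.74% of all genes were. This was the PRR3 homolog, which was lower at 24 h (log2 fold change -1.25 ± 0.17 SE, adjusted p = 0.000658, edgeR). The CCA1, ELF3 and CCR2 homologs had 0.14, -0.38 and 0.55 in this comparison and were not called.

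The CCA1 homolog was lower than in the controls late in the treatment, at 24 h at 30 °C and at 12 h and 24 h at 37 °C. In the 30 °C libraries of 24 h it had 14.3 and 20.8 CPM, against 237 and 198 CPM at 24 °C. The heated libraries held less than any control library of that time, with a log2 fold change of -3.62 ± 0.30 (SE, adjusted p = 1.99e-07, edgeR), or 12.3-fold lower. At 37 °C the gene was already called down at 12 h. After 12 h at 37 °C the gene had 0.414 and 0.299 CPM, against 13.1 and 19.7 CPM at 24 °C. Each of these 37 °C libraries held 3 reads of the gene. From the summed reads, 6 at 37 °C and 352 at 24 °C, the level was 46.7-fold lower (exact interval of 21.3 to 128 at 95% confidence, which covers counting error only). The fitted log2 fold change was -5.49 ± 0.50 (SE, adjusted p = 1.06e-07, edgeR). After 24 h at 37 °C the gene had 98.5 and 56.2 CPM, against 237 and 198 CPM at 24 °C, a log2 fold change of -1.49 ± 0.28 (SE, adjusted p = 0.000199, edgeR). The fall at 37 °C 24 h was therefore smaller than that at 30 °C 24 h, and the direct comparison of both is given below.

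At the other times the CCA1 homolog did not pass the test. After 1 h it had 197 and 150 CPM at 30 °C and 221 and 247 CPM at 37 °C, against 214.5 and 179 CPM at 24 °C, with log2 fold changes of -0.18 and 0.25. The value at 37 °C turned to -0.23 with library totals in place of TMM factors, and that at 30 °C to 0.00 without 30 °C 1 h replicate 2. After 6 h, the low point of the gene in controls, it had 0.496 and 1.01 CPM at 30 °C and 1.66 and 0.919 CPM at 37 °C, against 1.71 and 1.36 CPM at 24 °C. The heated libraries held 4 to 13 reads, so a further fall below this low point was hardly measurable at this depth. After 12 h at 30 °C it had 8.85 and 14.6 CPM, which overlapped the 13.1 and 19.7 CPM at 24 °C.

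The PRR3 homolog was higher in heated than in control protonemata at 1 h and 24 h at both temperatures, and at 6 h at 37 °C. After 1 h it had 129 and 109 CPM at 30 °C, against 47.7 and 58.1 CPM at 24 °C, a log2 fold change of 1.17 ± 0.16 (SE, adjusted p = 0.000267, edgeR). At 37 °C it had 462 and 677 CPM at this time, a log2 fold change of 3.43 ± 0.17 (SE, adjusted p = 2.05e-10, edgeR), or 10.8-fold higher. All heated libraries lay above both controls, and those of 37 °C above those of 30 °C. After 6 h it had 647 and 656 CPM at 30 °C and 1242 and 1233 CPM at 37 °C, against 390 and 382 CPM at 24 °C. The rise at 37 °C was called (log2 fold change 1.68 ± 0.16 SE, adjusted p = 2.49e-07, edgeR), whereas that at 30 °C passed the p threshold but not the fold limit (0.76, adjusted p = 0.0146, edgeR).

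At 12 h the PRR3 homolog had 371 and 357 CPM at 30 °C and 510 and 535 CPM at 37 °C, against 412 and 449 CPM at 24 °C, with log2 fold changes of -0.24 and 0.28. Neither was called, although the libraries of the 3 temperatures did not overlap. At 24 h, when the gene was at its lowest in controls, it had 252 and 277 CPM at 30 °C and 369 and 348 CPM at 37 °C, against 20.2 and 24.5 CPM at 24 °C. The log2 fold changes were 3.57 at 30 °C (standard error 0.18, adjusted p = 1.53e-09, edgeR) and 4.01 at 37 °C (standard error 0.18, adjusted p = 6.23e-11, edgeR), or 11.9-fold and 16.1-fold higher. No heated library of any time fell as low as the control libraries of 24 h.

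The ELF3 homolog was lower in heated protonemata at 6 h at both temperatures and at 12 h at 37 °C. After 6 h it had 5.95 and 17.8 CPM at 30 °C, against 57.4 and 67.6 CPM at 24 °C. The 2 heated libraries lay far apart but both below the controls, and the log2 fold change was -2.39 ± 0.43 (SE, adjusted p = 0.00651, edgeR). It was -3.39 without 30 °C 6 h replicate 2, and the call was lost without 30 °C 6 h replicate 1 (-1.81, adjusted p = 0.12, edgeR) and without 24 °C 6 h replicate 2 (-2.26, adjusted p = 0.0558, edgeR). At 37 °C it had 26.6 and 30.6 CPM at 6 h, a log2 fold change of -1.13 ± 0.41 (SE, adjusted p = 0.0284, edgeR). Leaving out any 1 of the 4 libraries ended this call, with log2 fold changes of -1.24 without 24 °C replicate 1, -1.01 without 24 °C replicate 2, -1.03 without 37 °C replicate 1 and -1.23 without 37 °C replicate 2. Each of these fits left 1 library in a group, and the values stayed near that of all libraries. After 12 h it had 48.8 and 59.6 CPM at 37 °C, against 146 and 173 CPM at 24 °C, and the log2 fold change of -1.55 ± 0.40 (SE, adjusted p = 0.0032, edgeR) remained called when any 1 of these libraries was left out and was not called with limma-voom and treat (adjusted p = 0.258).

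At 12 h at 30 °C the ELF3 homolog had 71.8 and 85.4 CPM, below both controls, and was not called (log2 fold change -1.02, adjusted p = 0.141, edgeR). After 1 h it had 52.7 and 59.1 CPM at 30 °C and 67.2 and 20.9 CPM at 37 °C, against 53.3 and 68.1 CPM at 24 °C. The 37 °C libraries of 1 h and the 30 °C libraries of 6 h were the most unequal pairs of this gene. The log2 fold change of -0.46 at 37 °C 1 h was not called, was -1.56 without 37 °C 1 h replicate 1 (adjusted p = 0.00613, edgeR) and turned to 0.14 without replicate 2, so 1 library decided it. At 30 °C 1 h the value of -0.12 turned to 0.07 without 24 °C 1 h replicate 2. After 24 h it had 53.5 and 75.0 CPM at 30 °C and 82.5 and 81.3 CPM at 37 °C, against 53.8 and 39.0 CPM at 24 °C, with log2 fold changes of 0.47 and 0.82 that were not called.

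The CCR2 homolog was lower in heated protonemata at 1 h and 12 h at 30 °C and at 12 h at 37 °C, and higher at 24 h at 30 °C. After 1 h it had 46.4 and 73.7 CPM at 30 °C and 56.5 and 82.8 CPM at 37 °C, against 118 and 140.0 CPM at 24 °C. The 4 heated libraries lay below both controls. The fall at 30 °C (-1.10, adjusted p = 0.0099, edgeR) was no longer called without 30 °C 1 h replicate 1 (-0.81, adjusted p = 0.152, edgeR) or 24 °C 1 h replicate 2 (-0.98, adjusted p = 0.0843, edgeR). The value at 37 °C (-0.89, adjusted p = 0.00715, edgeR) missed the fold limit and passed it without 24 °C 1 h replicate 1 (-1.01), without 37 °C 1 h replicate 2 (-1.20) and with library totals (-1.37). After 6 h it had 828 and 962 CPM at 30 °C and 518 and 695 CPM at 37 °C, against 928 and 1131 CPM at 24 °C, with log2 fold changes of -0.20 and -0.76 that were not called.

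At 12 h, the peak of the CCR2 homolog in controls, it had 811 and 670 CPM at 30 °C and 358 and 548 CPM at 37 °C, against 1869 and 1686 CPM at 24 °C. The heated libraries all lay below the controls, with log2 fold changes of -1.26 at 30 °C (standard error 0.24, adjusted p = 0.00464, edgeR) and -1.97 at 37 °C (standard error 0.24, adjusted p = 2.82e-06, edgeR). The call at 30 °C was lost without 30 °C 12 h replicate 2 (-1.11, adjusted p = 0.0811, edgeR). At 24 h the order was the opposite. The gene had 409.8 and 380 CPM at 30 °C and 341 and 374 CPM at 37 °C, against 180.0 and 197 CPM at 24 °C. The rise at 30 °C was called (log2 fold change 1.07 ± 0.24 SE, adjusted p = 0.00222, edgeR), though not with limma-voom and treat (adjusted p = 1). The value at 37 °C passed the p threshold with a size just under the fold limit (0.92, adjusted p = 0.00306, edgeR), and was called with library totals (1.08, adjusted p = 0.000852, edgeR). The study lists 3 further CCR2 homologs, and whether reads were shared between these genes was not tested.

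**Figure D2:**
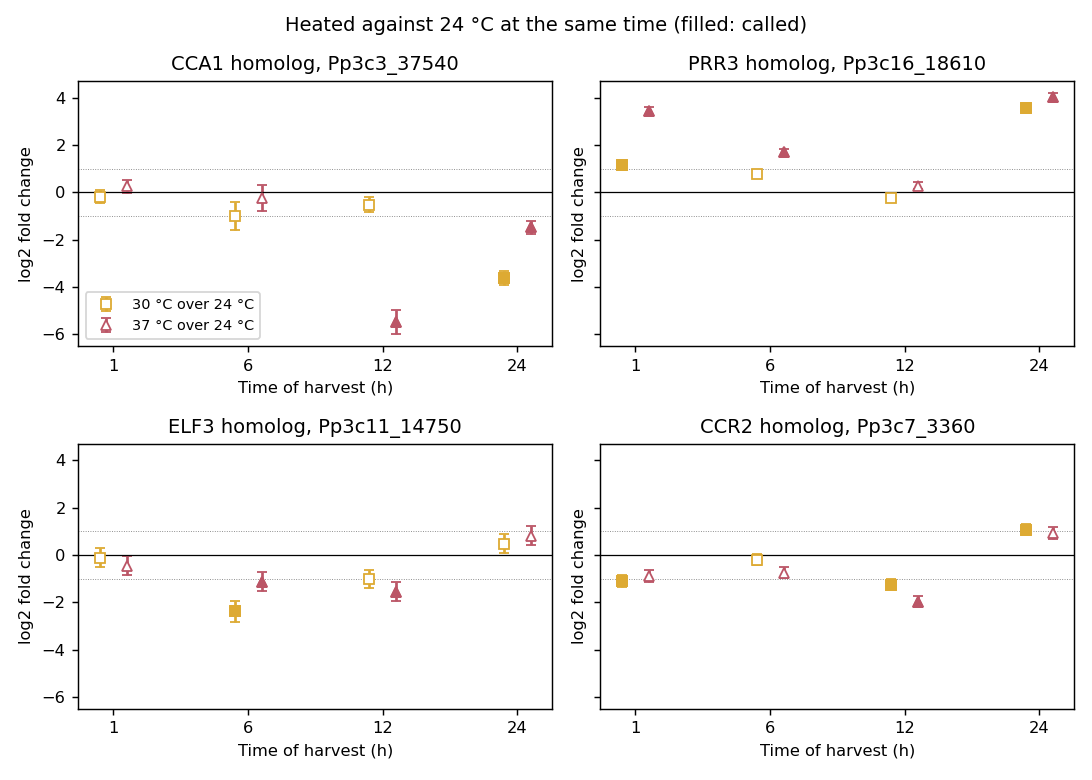
Log2 fold change of each homolog in heated against 24 °C libraries of the same time, at 30 °C (squares) and 37 °C (triangles), by time of harvest. Error bars are 1 standard error of the edgeR fit, filled symbols are called, and dotted lines mark a log2 fold change of 1 in either direction. At 24 h the PRR3 homolog stood at 3.57 and 4.01 and the CCA1 homolog at -3.62 and -1.49 at 30 °C and 37 °C.

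Of the 4 homologs, 2 were called at 30 °C 1 h, 1 at 30 °C 6 h, 1 at 30 °C 12 h and 3 at 30 °C 24 h, where 3.53%, 1.12%, 2.66% and 18.7% of all genes were called. With 37 °C the counts were 1 after 1 h, 2 after 6 h, 3 after 12 h and again 2 after 24 h, against backgrounds of 23.4%, 31.3%, 35.4% and 37.6%. With limma-voom and treat, the calls of PRR3 at 30 °C 1 h, CCR2 at 30 °C 1, 12 and 24 h, ELF3 at 30 °C 6 h and at 37 °C 6 and 12 h, and CCA1 at 37 °C 24 h were lost. Treat called fewer of all genes too. At 30 °C 1, 6, 12 and 24 h it called 53, 2, 14 and 820, where edgeR called 757, 239, 570 and 4008. At 37 °C it called 1203, 2492, 3520 and 3727, where edgeR called 5013, 6714, 7593 and 8049. The edgeR count of homologs at 37 °C 1 h was near the background share of all genes. The comparisons at 30 °C and 37 °C share the 24 °C libraries, so their values for a gene are not independent of each other. With 4 genes, chosen with earlier results of these data in view, the counts describe the genes and do not set them apart from others.

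In the direct comparison of 37 °C with 30 °C, 1 of the 4 homologs was called at each time, where 13.6%, 23.5%, 27.6% and 29% of all genes were called at 1, 6, 12 and 24 h. At 1 h the PRR3 homolog was higher at 37 °C (log2 fold change 2.26 ± 0.16 SE, adjusted p = 7.94e-08, edgeR). It was also above the 30 °C libraries at 6, 12 and 24 h, with 0.93, 0.52 and 0.44, which were under the fold limit. At 6 h the ELF3 homolog was higher at 37 °C (1.26, adjusted p = 0.0267, edgeR). This call did not hold in all fits with a library left out, which leave 1 library in its group. The value moved more with the 30 °C libraries than with those of 37 °C. It was lost without 30 °C 6 h replicate 1 (0.68), 37 °C 6 h replicate 1 (1.35) or 37 °C 6 h replicate 2 (1.15), and the value was 2.26 without 30 °C 6 h replicate 2. At 12 h the CCA1 homolog was lower at 37 °C, with 0.414 and 0.299 CPM, against 8.85 and 14.6 CPM at 30 °C. From the summed reads this was 30.9-fold lower (exact interval of 13.9 to 85.3 at 95% confidence, which covers counting error only). The fitted log2 fold change was -4.97 ± 0.52 (SE, adjusted p = 1.08e-06, edgeR). At 24 h the order was turned, with 98.5 and 56.2 CPM at 37 °C, against 14.3 and 20.8 CPM at 30 °C, a log2 fold change of 2.14 ± 0.29 (SE, adjusted p = 1.38e-05, edgeR). The ELF3 homolog at 1 h (-0.34) was not called, was -1.43 without 37 °C 1 h replicate 1 (adjusted p = 0.0148, edgeR) and 0.27 without 37 °C 1 h replicate 2. The CCR2 homolog at 12 h (-0.71) passed the fold limit only without 37 °C 12 h replicate 2 (-1.05). At 1 h it had 0.21, which turned to -0.17 with library totals.

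All 4 homologs changed between 12 h and 24 h in controls, and the same interval was compared at the heated temperatures. At 30 °C none of the 4 was called over this interval (24 h against 12 h log2 fold changes of 0.63 for CCA1, -0.46 for PRR3, -0.29 for ELF3 and -0.91 for CCR2), where 0.182% of all genes were called. At an unadjusted p under 0.05, 2 of the 4 passed with edgeR and 2 with DESeq2, where 2523 and 2162 of the 21429 genes did. DESeq2 also called none of the 4 after adjustment, and 139 of all genes. At 37 °C 1 of the 4 was called, where 11.9% of all genes were. This was the CCA1 homolog, with 98.5 and 56.2 CPM at 24 h, against 0.414 and 0.299 CPM at 12 h. From 1373 and 6 summed reads it was 232-fold higher (exact interval of 106.5 to 634 at 95% confidence, which covers counting error only). The fitted log2 fold change was 7.74 ± 0.47 (SE, adjusted p = 1.12e-08, edgeR). The PRR3, ELF3 and CCR2 homologs had -0.54, 0.59 and -0.34 at 37 °C. The falls of PRR3, ELF3 and CCR2 called at 24 °C were thus not called at 30 °C or 37 °C, although the PRR3 value at 37 °C passed the p threshold (adjusted p = 0.0172, edgeR).

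**Figure D3:**
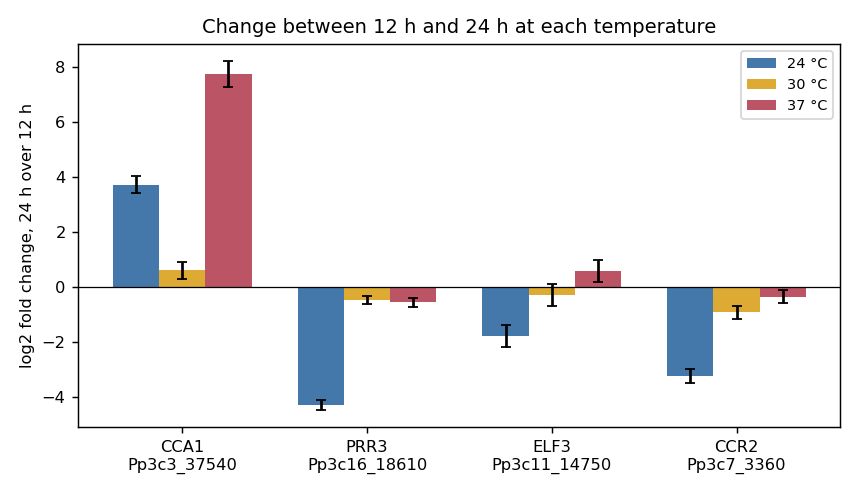
Log2 fold change of 24 h over 12 h for each homolog at 24 °C, 30 °C and 37 °C. Bars are the edgeR estimates and error bars 1 standard error. The PRR3 bar was -4.27 at 24 °C, -0.46 at 30 °C and -0.54 at 37 °C, and the CCA1 bar was 3.73, 0.63 and 7.74 at 24, 30 and 37 °C, the last resting on 6 reads at 12 h.

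A test of the difference between the heat responses at neighbouring times bore on this directly. At 30 °C the response at 24 h minus that at 12 h was called for 3 of the 4 homologs, where 5.93% of all genes were called. It was -3.10 for CCA1 (standard error 0.42, adjusted p = 0.000218, edgeR), 3.81 for PRR3 (standard error 0.23, adjusted p = 1.69e-07, edgeR) and 2.33 for CCR2 (standard error 0.33, adjusted p = 0.000346, edgeR). The CCR2 call was lost with limma-voom and treat (adjusted p = 0.0532), and the ELF3 value of 1.49 was called with only the libraries compared (1.48, adjusted p = 0.0127, edgeR). Over all genes, treat called 97 for this difference at 30 °C and 190 at 37 °C, where edgeR called 1271 and 2387. At 37 °C the difference was called for all 4 homologs with edgeR, where 11.1% of all genes were. It was 4.01 for CCA1, 3.73 for PRR3, 2.37 for ELF3 and 2.90 for CCR2, each positive. The ELF3 value was 2.18 without 24 °C 24 h replicate 2, with an adjusted p of 0.0508 (edgeR), and the ELF3 and CCA1 calls at 37 °C were lost with limma-voom and treat. The CCA1 response thus moved in opposite directions over this interval at 30 °C and 37 °C, a contrast that was not itself tested in a model term.

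Between earlier times fewer responses differed. At 37 °C the response at 6 h minus that at 1 h was called for 1 of the 4, where 23.1% of all genes were called, and was -1.75 for PRR3 (standard error 0.22, adjusted p = 2.06e-05, edgeR). That of ELF3 was -0.67, was called without 37 °C 1 h replicate 2 (-1.29) and turned to 0.41 without 37 °C 1 h replicate 1. The response at 12 h minus that at 6 h was called for 2, where 2.87% of all genes were called. It was -5.24 for CCA1 (standard error 0.83, adjusted p = 0.00157, edgeR) and -1.40 for PRR3 (standard error 0.22, adjusted p = 0.00158, edgeR). That of CCR2 was -1.21 (adjusted p = 0.0511, edgeR), and was called without 37 °C 12 h replicate 2 (-1.55), with the replicate block (-1.23, adjusted p = 0.0195, edgeR), with no filter (adjusted p = 0.0184, edgeR), with DESeq2 (adjusted p = 0.0102) and with limma-voom and eBayes (adjusted p = 0.0315). With limma-voom and treat the CCA1 and PRR3 calls of this comparison were lost, and treat called 19 of all genes (615 with edgeR). At 30 °C the response at 6 h minus that at 1 h was called for none of the 4 with edgeR, where 0.663% of all genes were called. The ELF3 value of -2.27 (adjusted p = 0.0847, edgeR) was called with DESeq2 (-2.23, adjusted p = 0.0123), and was -3.27 without 30 °C 6 h replicate 2. With edgeR, 2 of the 4 had an unadjusted p under 0.05, where 2947 of the 21429 genes did. The response at 12 h minus that at 6 h was called for none of the 4 with edgeR or DESeq2, and edgeR called 0% of all genes. At an unadjusted p under 0.05, 1081 genes passed with edgeR, 3 of the 4 homologs among them, and DESeq2 called 13 genes and limma-voom with eBayes 2.

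The spread of each gene over the 4 times changed with temperature. The highest group mean of the PRR3 homolog was 19.2 times its lowest at 24 °C, 5.47 times at 30 °C and 3.45 times at 37 °C. For the CCR2 homolog the ratio was 13.7 at 24 °C, 14.9 at 30 °C and 8.71 at 37 °C, and for the ELF3 homolog 3.44, 6.62 and 2.87. The CCA1 homolog had ratios of 142, 230 and 656 at 24, 30 and 37 °C, whose low ends rest on few reads. The time of the highest mean also differed. The PRR3 and CCR2 homologs were highest at 12 h at 24 °C and at 6 h at 30 °C and 37 °C, and the lowest mean of the CCA1 homolog was at 6 h at 24 °C and 30 °C and at 12 h at 37 °C. At 24 °C, the PRR3 and CCR2 homologs were not called for 12 h against 6 h. The log2 fold changes were 0.16 (adjusted p = 0.758, edgeR) and 0.79 (adjusted p = 0.082, edgeR). The CCR2 libraries overlapped at 37 °C, with 518 to 695 CPM at 6 h and 358 to 548 CPM at 12 h. In the other heated pairs of these 2 genes, the 6 h libraries lay above those of 12 h. The ratios, and the differences in these times between temperatures, are descriptions from 4 times only, without a test.

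Over the 12 groups, the CCA1 homolog was highest at 37 °C 1 h (234 ± 18.6 CPM, SD, n = 2), with 24 °C 24 h, 24 °C 1 h and 30 °C 1 h following in libraries that overlapped from each group to the next. The groups at 37 °C 24 h (77.3 ± 29.9 CPM) and 30 °C 24 h (17.6 ± 4.57 CPM) came after them without overlap, and 37 °C 12 h was lowest (0.356 ± 0.0813 CPM). The PRR3 homolog was highest at 37 °C 6 h (1238 ± 6.36 CPM, SD, n = 2), apart from all others, and lowest at 24 °C 24 h (22.4 ± 3.0 CPM). Of its 11 neighbouring pairs of groups, only 3 overlapped. The ELF3 homolog was highest at 24 °C 12 h (159 ± 19.4 CPM, SD, n = 2) and lowest at 30 °C 6 h (11.9 ± 8.38 CPM). The groups from its second to its eleventh place, 81.9 to 28.6 CPM, each overlapped the next, so neighbours in this order did not differ beyond their spread, although groups further apart did not all overlap (81.3 to 82.5 CPM at 37 °C 24 h and 26.6 to 30.6 CPM at 37 °C 6 h). The CCR2 homolog was highest at 24 °C 12 h (1777 ± 129 CPM, SD, n = 2) and lowest at 30 °C 1 h (60.1 ± 19.3 CPM), which overlapped 37 °C 1 h (69.7 ± 18.6 CPM).

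Listed relatives of the 4 genes did not all move with them. Among MYB-type factors related to CCA1, the EPR1 homolog Pp3c12_17450 had 17.6 and 19.7 CPM in the 30 °C libraries of 24 h, against 81.9 and 83.7 CPM at 24 °C (log2 fold change -2.15 ± 0.22 SE, adjusted p = 1.61e-06, edgeR). At 37 °C it was higher at 1 h (1.52), lower at 6 h (-2.13) and not called at 12 h (-0.71) or 24 h (-0.83). Of the RVE2 homologs, Pp3c4_2590 was called up at 37 °C 1 h (1.31) and Pp3c3_33220 in none of the comparisons with 24 °C (-0.68 to 0.20). Among the pseudo-response regulators, the PRR9 homolog Pp3c25_4920 was called up at 37 °C 1 h, with 127 to 134 CPM, against 48.5 to 62.3 CPM at 24 °C (1.24 ± 0.15 SE, adjusted p = 7.45e-06, edgeR). The PRR7 homolog Pp3c16_18460 was called down at 37 °C after 6 h (-1.41) and 12 h (-1.54), times at which the PRR3 homolog had 1.68 and 0.28.

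In the evening complex, the ELF4 homolog Pp3c6_6280, whose *Arabidopsis* counterpart binds ELF3, was called down at 37 °C 6 h (-1.15). The second ELF3 homolog, Pp3c7_10610, went the other way from Pp3c11_14750 at that time, with 12.1 and 23.5 CPM at 37 °C, against 3.996 and 4.69 CPM at 24 °C (log2 fold change 2.03 ± 0.28 SE, adjusted p = 1.38e-05, edgeR). At 24 °C it was lowest at 6 h, being lower at 6 h than at 1 h (-2.54) and higher at 12 h than at 6 h (3.34), whereas Pp3c11_14750 had 0.04 and 1.35. Of the other CCR2 homologs, Pp3c7_6560 was higher at 30 °C 24 h (1.39), 37 °C 6 h (1.67) and 37 °C 24 h (1.89). Pp3c11_19620 was lower at 30 °C 12 h (-1.09), 37 °C 12 h (-2.01) and 37 °C 24 h (-1.47), and Pp3c12_1830 was called in none of the comparisons with 24 °C (-0.42 to 0.48). At 37 °C 24 h, Pp3c7_6560 had 9028 and 9238 CPM, against 2441 and 2476 CPM at 24 °C, while Pp3c11_19620 had 200 and 225 CPM, against 549 and 627 CPM.

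**Figure D4:**
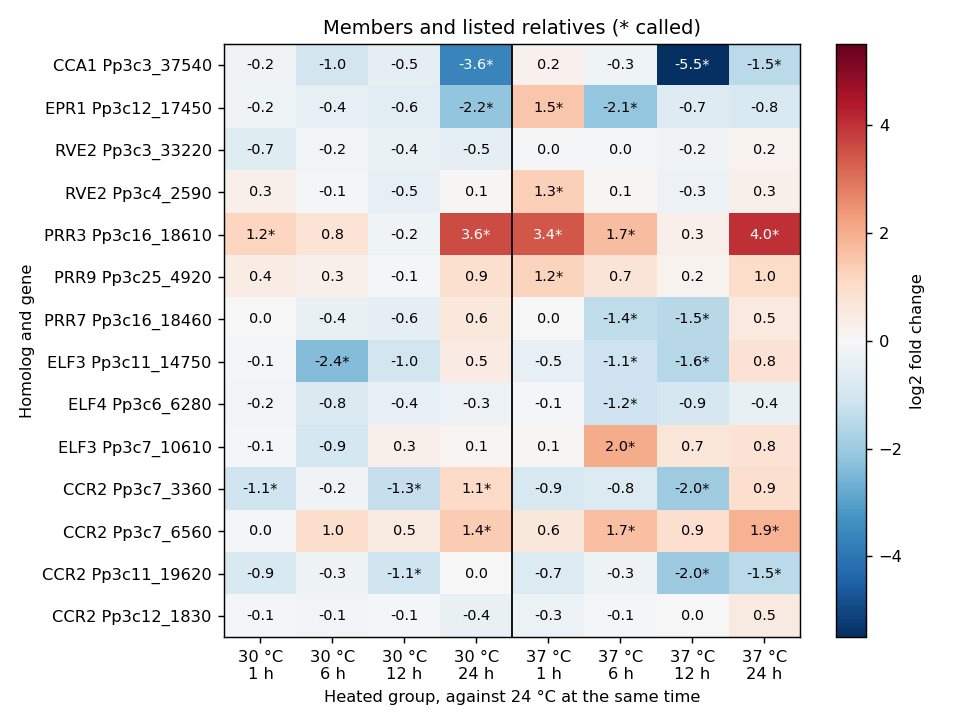
Log2 fold change of the 4 homologs and of 10 listed relatives (rows) in the 8 comparisons of heated with 24 °C libraries of the same time (columns), where red is higher and blue lower in the heated libraries and a star marks a call. Rows of 1 family differ, as for the ELF3 homologs at 37 °C 6 h (-1.13 for Pp3c11_14750 and 2.03 for Pp3c7_10610).

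The study lists 48 further homologs of clock-associated genes, including photoreceptors, light signalling factors and casein kinase 2 subunits, of which 46 were tested. At 30 °C none of the 46 was called with edgeR at 1 h or 6 h, where 13 and 12 had an unadjusted p under 0.05 and DESeq2 called 2 and 0. Of all 21429 genes, 4717 and 3566 had an unadjusted p under 0.05 with edgeR, and DESeq2 called 822 and 321. At 12 h 2 of the 46 fell (4.35%), and at 24 h 3 rose and 10 fell (28.3%), to be read against the backgrounds given above. At 37 °C 11 rose and 7 fell at 1 h (39.1%), 9 rose and 9 fell at 6 h (39.1%), 7 rose and 14 fell at 12 h (45.7%), and 9 rose and 7 fell at 24 h (34.8%). The median log2 fold change of the 46 genes lay between -0.34 and 0.19 in the 8 comparisons, where that of all genes lay between -0.01 and 0.08. The 3 tested homologs of ARR4, a response regulator, were called down at 37 °C after 6, 12 and 24 h. The 3 tested casein kinase 2 subunits went the other way, with 3 called up at 6 h, 3 at 12 h and 2 at 24 h. Of all 21429 genes, 3758, 4019 and 4189 were called down and 2956, 3574 and 3860 up at these times. The largest falls and rises on the list belonged to a homolog of COP1, a ubiquitin ligase of light signalling (Pp3c5_26150, -4.45 at 30 °C 24 h), and to a homolog of XCT, a nuclear regulator of the clock (Pp3c17_13560, 4.02 at 37 °C 1 h).

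Pairwise over the 12 group means of log2 CPM, Pearson's r was -0.68 between the CCA1 and PRR3 homologs, -0.74 between CCA1 and CCR2, and 0.49 between PRR3 and CCR2. The ELF3 homolog had 0.32 with CCA1, -0.21 with PRR3 and 0.11 with CCR2. The points share libraries and sampling times, so these are descriptions. Among 17189 genes with a mean log2 CPM of at least 1, those most like the CCA1 homolog were Pp3c10_25150 (r = 0.95), Pp3c13_20600 (0.95) and Pp3c13_8590 (0.95). For the PRR3 homolog they were Pp3c21_21490 (0.95), Pp3c2_28960 (0.95) and Pp3c9_15340 (0.94), and for the CCR2 homolog Pp3c14_1450, Pp3c14_13300 and Pp3c3_700 (0.97 each). The CCA1, PRR3 and CCR2 homologs had 22, 33 and 62 genes above 0.9. The ELF3 homolog had no gene above 0.9, and its nearest were Pp3c17_20330 (0.81), Pp3c24_1980 (0.79) and Pp3c2_14560 (0.78). Pearson's r takes no account of the size of changes. Group means of Pp3c13_8590 ran from 4.14 to 5.15 log2 CPM and those of Pp3c3_700 from 4.29 to 4.96. Those of the CCA1 and CCR2 homologs ran from 0.356 to 234 and from 60.1 to 1777 CPM. None of the 12 named genes is on the list of clock homologs, and with Spearman's coefficient none of the 3 nearest genes of any homolog was the same.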

How the data were processed

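The authors extracted total RNA, purified messenger RNA by its polyA tract and made strand-specific libraries. Reads were demultiplexed with bcl2fastq 1.8.4 and aligned with BWA-MEM 0.7.17.1 to the version 3 moss genome. Counting used featureCounts with the feature type set to gene and otherwise default settings, which do not use strand. Counts over whole genes can take in reads from introns, whose share was not examined. Reads from the 2 strands of a gene were therefore not separated, and the effect on overlapping genes was not examined. The authors deposited 1 file of raw counts per library, not normalized.

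These were fitted with edgeR 4.0.16 (R 4.3.3). The filter asked for a CPM over 0.5 in 2 or more libraries and left 21429 genes. TMM factors lay between 0.652 and 1.19. All 24 libraries entered 1 quasi-likelihood model of 12 groups, with 24 comparisons and Benjamini-Hochberg adjustment within each. The standard error is the log2 fold change divided by the square root of F. Likeness used log2 CPM with a prior count of 2. The edgeR fit was tested on simulated data. Named genes were the 4 homologs, listed relatives of the same families, the listed genes of largest change and the 3 most similar genes of each homolog. The ARR4 homologs and the casein kinase 2 subunits were named outside this rule.

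Alternatives were limma-voom (limma 3.58.1) with treat or eBayes, DESeq2 1.42.0, RLE factors, library totals, no filter on low counts, a filter at CPM 1, the replicate block, only the libraries compared and each library left out. Limma-voom with the eBayes and treat functions was also the method of the study itself. With treat, 53 genes at 30 °C 1 h and 820 at 30 °C 24 h were called here, the numbers the study gave. The members and lists were chosen with earlier results of these data known. Genome positions, promoters, proteins and gene lengths were not analysed here, so levels are not compared between genes.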

Additional observations from a re-analysis of the deposited data

Results flagged for a closer look

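The heat response of a homolog, heated against 24 °C libraries of the same time, differed between neighbouring times in 10 cases by the interaction term of the edgeR fit (adjusted p under 0.05 and a log2 difference of at least 1 in size). Every homolog was tested at both temperatures over each neighbouring pair of times. At 30 °C, 24 h minus 12 h, the difference was -3.10 for CCA1, 3.81 for PRR3 and 2.33 for CCR2. At 37 °C it was -1.75 for PRR3 at 6 h minus 1 h, -5.24 for CCA1 and -1.40 for PRR3 at 12 h minus 6 h, and 4.01 for CCA1, 3.73 for PRR3, 2.37 for ELF3 and 2.90 for CCR2 at 24 h minus 12 h. Both CCA1 values at 37 °C rest on libraries of 12 h with 3 reads each. Of all genes, 5.93% were called at 30 °C, 24 h minus 12 h. At 37 °C the share was 23.1% at 6 h minus 1 h. It was 2.87% at 12 h minus 6 h and 11.1% at 24 h minus 12 h. No homolog was called for the earlier intervals at 30 °C, with 0.663% and 0% of all genes. With limma-voom and treat, CCR2 at 30 °C was not called. At 37 °C treat lost CCA1 and PRR3 at 12 h minus 6 h. It also lost CCA1 and ELF3 at 24 h minus 12 h. Treat called fewer of all genes there too. With 2 libraries a group, no group was large enough to look for a single deviating library.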

How the results depend on the processing

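Of the 96 values, 4 homologs in 24 comparisons, 39 were called. The share of all genes called differed widely between these comparisons. It was lowest for the response to 30 °C at 12 h minus that at 6 h (0%). It was highest for 37 °C against 24 °C at 24 h (37.6%). Over the other settings 828 values kept direction and call, 18 lost the call, 14 gained one and 4 changed sign, and over leaving out a library 445, 14, 8 and 13. Medians of all genes shifted by -0.45 to 0.39 with library totals, most at 37 °C 1 h, and by less than 0.1 with RLE factors. The cause of the changes below was not tested. Low reads limited CCA1 at 6 h in all groups and at 37 °C 12 h.

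With limma-voom and treat, which tests against the fold limit itself, the homologs called numbered 0 at 30 °C 1 h, 0 at 30 °C 6 h, 0 at 30 °C 12 h, 2 at 30 °C 24 h, 1 at 37 °C 6 h, 2 at 37 °C 12 h, 1 at 37 °C 24 h, 0 for 37 °C against 30 °C at 6 h, 0 for 12 h against 6 h, 3 for 24 h against 12 h and 0 for 24 h against 1 h at 24 °C, 2 for the response to 30 °C at 24 h minus that at 12 h, and, for the responses to 37 °C, 0 at 12 h minus 6 h and 2 at 24 h minus 12 h. In each comparison just listed, treat also called fewer of all genes than edgeR. These numbers ran from 0 for 24 h against 1 h at 24 °C (edgeR 802) to 3727 at 37 °C 24 h (edgeR 8049). In the other comparisons the count of homologs called with treat equalled that of edgeR. For 12 h against 6 h at 24 °C, 2 were called with limma-voom and eBayes, 2 with DESeq2, 2 with no filter and 2 with only the libraries compared. Of all genes, eBayes called 374 and DESeq2 388 there, where edgeR called 340. For the response to 30 °C at 6 h minus that at 1 h, 1 was called with DESeq2, 1 with no filter and 1 with only the libraries compared. DESeq2 called 305 of all genes there, where edgeR called 142. For no filter, library totals and only the libraries compared, the number of all genes called was not counted. Their counts of homologs therefore have no background. With only the libraries compared, 4 were called for the response to 30 °C at 24 h minus that at 12 h, and 0 were called for 37 °C against 30 °C at 6 h. With library totals 3 were called at 37 °C 24 h, 2 at 37 °C 1 h, CCA1 there was -0.23, and CCR2 was -0.17 for 37 °C against 30 °C at 1 h. ELF3 at 6 h against 1 h at 24 °C was -0.0077 with DESeq2 and -0.0076 with RLE factors.

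With a library left out, its group kept 1 library, so calls could be lost or gained with little change in the value. The number of all genes called in these fits was not counted. Counts of homologs called are therefore not listed for them, and only log2 fold changes are given here. Values that changed sign ranged from -0.39 to 0.0027 for CCA1 and from -0.28 to 0.069 for ELF3 at 30 °C 1 h, from -1.56 to 0.14 for ELF3 at 37 °C 1 h, and from -0.74 to 0.10 for CCA1 at 37 °C 6 h. For 37 °C against 30 °C at 1 h they ranged from -1.43 to 0.27 for ELF3 and from -0.083 to 0.58 for CCR2. ELF3 ranged from -0.12 to 0.23 for 6 h against 1 h at 24 °C. For the response to 37 °C at 6 h minus that at 1 h, ELF3 ranged from -1.29 to 0.41 and CCR2 from -0.12 to 0.42.

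Each group held replicates numbered 1 and 2. Over the 66 pairs of groups, the deviations of same-numbered libraries correlated with r of -0.19 to 0.33 (median 0.03), so the numbers were not taken as pairing the libraries. With the replicate block, the call changed only for the CCR2 response to 37 °C at 12 h minus that at 6 h (-1.23), which raised that count to 3, against 2 without the block.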
